A study of Danio rerio with 8 samples.

Results

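The transcripts of egln3 and pfkfb4a were examined in zebrafish larval hearts exposed to sorafenib, a multikinase inhibitor used against cancer that blocks RAF kinases and vascular growth factor receptors. They are 2 genes of 10536 that the arrays measured by name, and each is represented by 1 of 43603 probes. A probe was assigned when its RefSeq accession (NM_213310 for egln3, NM_001037377 for pfkfb4a) carried that symbol in the RefSeq gene table. Both genes were picked with their levels in sorafenib and control hearts already known, that is, they were selected on the difference described below, which is therefore a description and carries no test. The sorafenib group comprised 4 heart RNA samples from larvae kept in 1 uM sorafenib between 72 and 96 hours post-fertilization. The control group comprised 4 heart RNA samples from larvae kept in the vehicle over the same hours. All samples were taken at 4 days post-fertilization and hybridised to Agilent one-colour arrays, and the series describes 4 independent experiments per group. The labels name no strain, no transgene and no number of hearts per sample.

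Prolyl hydroxylases of the EGLN family use molecular oxygen to hydroxylate the alpha subunits of hypoxia-inducible factor (HIF), which the von Hippel-Lindau protein then marks for destruction. When oxygen is scarce the alpha subunits persist, pair with ARNT and activate genes of oxygen supply, matrix modification and glycolysis. In mammals EGLN3 is itself a HIF target, which gives the pathway a negative feedback. PFKFB enzymes make and break down fructose-2,6-bisphosphate, the activator of phosphofructokinase, and so set the pace of glycolysis. The PFKFB4 gene of mammals is also induced by HIF.

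Between 54.98% and 59.54% of the spots on each array were well above background, and each array's 75th percentile of processed signal was between 85.1 and 154.9. Correlations across transcripts were 0.947 to 0.985 within groups and 0.947 to 0.987 between groups. Levels below are log2 processed signals from which each array's 75th percentile was subtracted, so 0 stands for the signal at that percentile. Differences are sorafenib minus control on that log2 scale. Of the heart muscle genes, the 3 brightest on the arrays were actc1a, cmlc1 and tnnc1b, which encode a cardiac actin, a myosin light chain and a troponin C. They averaged 6.98 ± 0.34, 6.67 ± 0.71 and 5.72 ± 0.34 in sorafenib hearts, against 6.76 ± 0.24, 6.05 ± 0.43 and 5.61 ± 0.15 in control hearts (SD, n = 4 each). Each slide held 2 sorafenib and 2 control arrays. Control samples lay at positions 1 and 3 of both slides and sorafenib samples at positions 2 and 4, so position and exposure cannot be told apart.

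The egln3 transcript, which encodes the prolyl hydroxylase PHD3, was higher in every sorafenib heart sample than in any control sample. Its level was 0.72, 2.14, 2.004 and 0.29 in sorafenib replicates 1 to 4, against -0.59, -0.79, -1.23 and -0.99 in control replicates 1 to 4. Sorafenib replicates 2 and 3 were high and replicates 1 and 4 lower, while the controls lay close together. The lowest sorafenib value exceeded the highest control value by 0.88. In the scanner's linear units the processed signal was 140, 436, 396 and 189 in sorafenib replicates 1 to 4, against 70.0, 55.6, 65.5 and 58.4 in control replicates 1 to 4. The spot was well above background on all 8 arrays.

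Averaged over replicates, egln3 stood at 1.29 ± 0.92 in sorafenib hearts and -0.90 ± 0.27 in control hearts (SD, n = 4 each). The difference was 2.19 ± 0.41 (SE), a 4.55-fold higher level in sorafenib hearts. It ranked 9 from the top among the 20736 transcripts compared and 4 from the top among those with a gene name. The separation of the 2 groups of arrays, seen for 2.26% of all transcripts in this direction, is part of what the gene was picked for. The difference was 2.12 among the arrays of slide 1 and 2.26 among those of slide 2.

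The level of egln3 varied among sorafenib samples. Its spread there exceeded that of 93.11% of all transcripts in the same arrays, whereas its spread among controls exceeded that of 47.20%. Sorafenib replicates 2 and 3 averaged 2.07 and replicates 1 and 4 averaged 0.50, and these pairs come from both slides. With replicates 2 and 3 left out, the difference was 1.40. It was 1.44 after a background model (normexp) whose estimate for sorafenib replicate 4 lay far from those for the other arrays.

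The pfkfb4a transcript, which encodes a bifunctional kinase and phosphatase of fructose-2,6-bisphosphate, was on average lower in sorafenib hearts. Its level was -1.31, -1.47, -1.84 and -1.91 in sorafenib replicates 1 to 4, against -1.45, -0.46, -0.88 and -0.75 in control replicates 1 to 4. The groups overlapped, because control replicate 1 lay below sorafenib replicate 1. In the other 15 of 16 pairings of a sorafenib with a control array, the sorafenib array was lower. The processed signal was 34.3, 35.9, 27.7 and 41.2 in sorafenib replicates 1 to 4, against 38.6, 69.9, 83.2 and 69.0 in control replicates 1 to 4. The spot was dim but well above background on all 8 arrays, at 2.38 to 3.76 times its local background in sorafenib arrays and 2.82 to 4.66 times in control arrays.

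Averaged over replicates, pfkfb4a stood at -1.63 ± 0.29 in sorafenib hearts and -0.88 ± 0.41 in control hearts (SD, n = 4 each). The difference was -0.75 ± 0.24 (SE), or 0.60 times the control level. It ranked 724 from the bottom among all transcripts compared and 239 from the bottom among named genes. The difference was -0.44 on slide 1, which holds the low control replicate 1, and -1.06 on slide 2. Without control replicate 1 it was -0.93. Its size varied between ways of computing the signal. It was -0.57 after subtracting the local background and adding an offset of 10, -0.34 with an offset of 50 and -0.04 after normexp. In the authors' deposited table, which differs in scaling, floor and probes, it was -0.45.

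**Figure D1:**
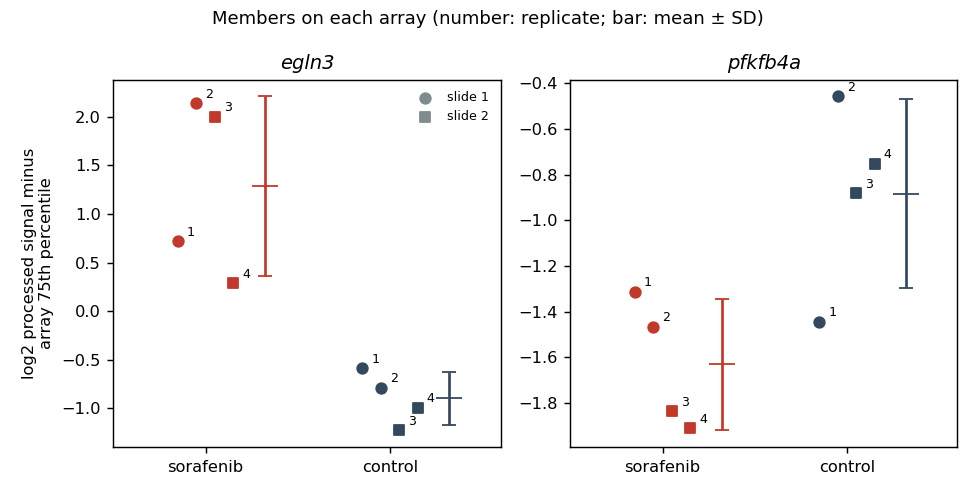
Level of egln3 (left) and pfkfb4a (right) on each array, as log2 processed signal minus the array's 75th percentile, with separate vertical scales. Sorafenib arrays are red and control arrays dark blue, circles are slide 1 and squares slide 2, digits are replicate numbers and bars show the mean ± SD. All 4 sorafenib values of egln3 lie above the control values, while control replicate 1 of pfkfb4a lies among the sorafenib values.

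The label of the pair as hypoxia-responsive therefore met opposite signs in these hearts, with egln3 higher and pfkfb4a lower after sorafenib. Over the 8 arrays the levels of both genes had a Pearson correlation of -0.69. Both were picked on their group differences, whose opposite signs already favour a negative value, so it is not separate evidence. The correlation of their deviations from the group means was -0.03. All values come from the same arrays and share each array's scaling. Sorafenib replicates 2 and 3, the highest for egln3, averaged -1.65 for pfkfb4a, against -1.61 for replicates 1 and 4.

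Across all 20736 transcripts, limma with Benjamini-Hochberg adjustment called 0 higher (0%) and 0 lower (0%) at an adjusted p under 0.05. At an unadjusted p under 0.05 it held 863 higher (4.16%) and 699 lower (3.37%). Among the 8904 named genes tested, from which the lists below draw, these shares were 4.90% and 2.95%. The pathway genes below were read against these shares, and none of them passed the adjusted threshold. The median difference over all transcripts was -0.02, with 9995 positive and 10741 negative values. Over the named genes the median was 0.03, with 4793 positive and 4111 negative values. The SEs and p-values in these Results come from this fit, which took same-numbered arrays as unpaired. With replicate number as a block, 2791 transcripts had an unadjusted p under 0.05 in limma, against 1562 without it. That block also gave 0 calls at the adjusted threshold.

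Among genes of oxygen sensing and HIF itself, other than egln3, no shared shift was seen. The list had 31 genes, of which 15 were measured, with a median difference of 0.03 and 9 positive against 6 negative values. At the unadjusted threshold 1 was higher (6.67%) and 0 were lower (0%), against 4.16% and 3.37% of all transcripts. That gene was egln1b, which encodes another prolyl hydroxylase. Its level was 2.88, 3.13, 3.10 and 2.66 in sorafenib replicates 1 to 4, against 2.55, 2.66, 2.45 and 2.52 in control replicates 1 to 4. Sorafenib replicates 2 and 3 were again the highest, and the groups overlapped only at sorafenib replicate 4 and control replicate 2. The difference was 0.40 ± 0.17 (SE, limma adjusted p = 0.654), and the other egln1b probe gave 0.54. It was 0.30 and 0.34 after local background subtraction with offsets of 50 and 10. Normexp, which fitted sorafenib replicate 4 poorly, gave -0.24. The genes egln1a, egln2, hif1aa, hif1ab and epas1a were not analysed here.

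The partners of the hydroxylases described here had differences from -0.61 to 0.35. The von Hippel-Lindau gene vhl averaged -1.42 ± 0.17 in sorafenib hearts and -1.77 ± 0.33 in control hearts (SD, n = 4 each). Its difference was 0.35 ± 0.20 (SE). The HIF-2 alpha gene epas1b averaged 1.47 ± 0.53 in sorafenib hearts and 1.74 ± 0.56 in control hearts, with sorafenib replicate 4 standing apart at 2.26 and a difference of 0.15 on slide 2 alone. For hif1al, a further HIF alpha gene, the difference was 0.11 ± 0.31 and its sign changed under several settings. Its 4 probes gave differences between -0.22 and 0.42. The gene hif1al2 differed by -0.11 ± 0.40 and was well above background on 2 sorafenib and 2 control arrays. The HIF partner arnt differed by 0.09 ± 0.25. The signs of hif1al2 and arnt also changed when single arrays were left out. Its paralogue arnt2 differed by -0.61 ± 0.33, with 0.34 after normexp. The limma adjusted p-values of these genes lay between 0.667 and 0.954.

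The other measured PFKFB genes did not move as 1 group. Of 5 listed genes 4 were measured, with a median difference of 0.31. The paralogue closest in name, pfkfb4b, was lower, with levels of 5.08, 4.57, 4.02 and 3.98 in sorafenib replicates 1 to 4, against 5.04, 4.94, 5.22 and 5.04 in control replicates 1 to 4. As for pfkfb4a, sorafenib replicates 3 and 4 were the lowest and replicate 1 overlapped the controls. The difference was -0.65 ± 0.25 (SE, limma adjusted p = 0.647), its 3 probes gave -0.65 to -0.55, and normexp gave -1.37. It was the 1 family member past the unadjusted threshold, or 25% of the 4 measured, against 3.37% of all transcripts in that direction.

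The remaining family members had positive differences, none past the adjusted threshold. The gene pfkfb1 averaged -0.92 ± 0.23 in sorafenib hearts and -1.38 ± 0.32 in control hearts (SD, n = 4 each), a difference of 0.47 ± 0.21. The gene pfkfb2a differed by 0.73 ± 0.43 and was well above background on 3 sorafenib and 2 control arrays. For pfkfb3, a HIF target in mammals like PFKFB4, the difference was 0.15 ± 0.24, and it was -0.05 without sorafenib replicates 2 and 3.

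Genes known as HIF targets in vertebrates were as often lower as higher in sorafenib hearts. The list held 82 genes besides egln3 and pfkfb4a, 58 had a named probe and 49 were measured. Their median difference was 0.02, with 25 positive and 24 negative values from -0.73 to 1.26, against 2.19 for egln3. At the unadjusted threshold 4 were higher (8.16%) and 2 lower (4.08%), against 4.16% and 3.37% of all transcripts and 4.90% and 2.95% of named genes. The carbonic anhydrase gene ca9, the glucose transporter gene slc2a1a, the erythropoietin gene epoa and the nitric oxide synthase genes nos2a and nos2b were well above background on 0 of 8 arrays.

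Among HIF targets with the smallest p-values were genes for collagen prolyl 4-hydroxylase subunits. The gene p4ha1b averaged 1.96 ± 0.12 in sorafenib hearts and 1.31 ± 0.45 in control hearts (SD, n = 4 each), a difference of 0.65 ± 0.23. The gene p4ha2 averaged 3.85 ± 0.21 in sorafenib hearts and 3.29 ± 0.30 in control hearts, a difference of 0.56 ± 0.20. Its probes gave 0.49 to 0.61. After local background subtraction with offsets of 50 and 10 the p4ha2 difference was 0.51 and 0.55, and after normexp -0.13. For p4ha1b and p4ha2, every sorafenib array lay above every control array, as for 3 of the 49 measured HIF targets and 2.26% of all transcripts. All sorafenib arrays lay below all control arrays for 0 of the 49. A further subunit gene, p4ha1a, named after its value was seen, differed by -0.53 ± 0.47. The EGFR feedback inhibitor gene errfi1a differed by 0.91 ± 0.30, as the third of these genes without overlap, and was well above background on 4 sorafenib and 3 control arrays. The mTORC1 inhibitor gene ddit4 differed by 0.76 ± 0.28 with overlap. The adjusted p-values of these 4 genes in limma lay between 0.588 and 0.631.

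On the lower side of the HIF targets stood pfkfb4b, described above, and the mitochondrial gene ndufa4l2a. Levels of ndufa4l2a averaged -0.15 ± 0.44 in sorafenib hearts and 0.45 ± 0.27 in control hearts (SD, n = 4 each), a difference of -0.60 ± 0.25. The chemokine receptor gene cxcr4b differed by -0.41 ± 0.19, and the aldolase gene aldocb by -0.73 ± 0.36. Their limma adjusted p-values, with that of ndufa4l2a, lay between 0.651 and 0.660. The targets vegfaa, pgk1 and ldha, named here after their values were seen, differed by 0.16 ± 0.21, 0.14 ± 0.17 and -0.10 ± 0.17 (SE). Larger positive differences, also picked after their values were seen, included ndrg1b, ero1a and igfbp1a. These differed by 1.26 ± 0.79, the highest of the list, 0.63 ± 0.45 and 0.47 ± 0.27. Over the whole list, 25 differences were positive and 24 negative.

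Genes of glycolysis and of lactate and pyruvate handling showed no shared direction. Their list covers steps before and after phosphofructokinase and the opposing fructose-1,6-bisphosphatase genes. It shares hk1, hk2, aldocb, pgk1, eno1a, ldha, slc2a3a and slc16a3b with the HIF target list, so the lists are not separate. Of 61 listed genes 43 were measured, with a median difference of -0.09 and 18 positive against 25 negative values. At the unadjusted threshold 2 were higher (4.65%) and 0 were lower (0%), against 4.16% and 3.37% of all transcripts. In 1 gene of the 43 every sorafenib array lay above every control array, as in 2.26% of all transcripts. That gene was the fructose-2,6-bisphosphatase gene tigarb, whose product removes the metabolite that PFKFB kinases make. Its level was 1.67, 1.49, 1.67 and 1.49 in sorafenib replicates 1 to 4, against 1.35, 0.98, 1.01 and 1.15 in control replicates 1 to 4. The difference was 0.46 ± 0.16 (SE, limma adjusted p = 0.615), with 0.07 after normexp.

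Of the other genes of the glycolysis list with the smallest p-values, none passed the adjusted threshold. Higher values were found for pklr and fbp1b, which in mammals are the liver type pyruvate kinase and fructose-1,6-bisphosphatase, with differences of 0.92 ± 0.36 and 0.66 ± 0.31 (SE). Lower values were found for the enolase gene eno2 and the aldolase gene aldocb, whose mammalian counterparts mark brain, at -0.91 ± 0.45 and -0.73 ± 0.36. The phosphoglycerate mutase gene pgam1b differed by -0.47 ± 0.22 and the triosephosphate isomerase gene tpi1a by -0.33 ± 0.16. For eno2 the levels were 3.86, 1.996, 2.11 and 3.56 in sorafenib replicates 1 to 4, against 4.12, 3.16, 3.98 and 3.90 in control replicates 1 to 4. Its 2 lowest arrays were sorafenib replicates 2 and 3, those with the most egln3. The limma adjusted p-values of these 6 genes lay between 0.646 and 0.662.

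**Figure D2:**
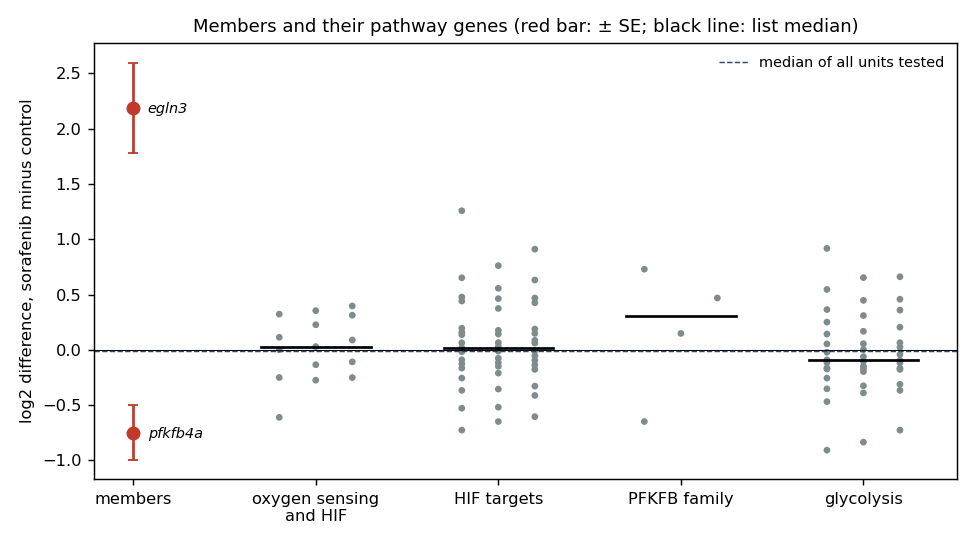
Log2 difference, sorafenib minus control, of egln3 and pfkfb4a (red, ± SE) and of each measured gene of 4 lists that leave out both (grey points, spread sideways for legibility). Some genes stand in several lists. Black lines are list medians (0.03, 0.02, 0.31 and -0.09 from left to right) and the dashed line is the median of all transcripts. The egln3 point at 2.19 lies above every list gene, the highest of which is at 1.26.

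The named genes whose levels followed egln3 most closely over the 8 arrays were ficd, entpd4, lysmd1, c1qb and f9b. Their Pearson correlations with egln3 ran from 0.974 to 0.980 among 8903 genes compared, and those of the deviations from group means from 0.898 to 0.969. The gene ficd encodes an enzyme that modifies the endoplasmic reticulum chaperone BiP, entpd4 a Golgi nucleotidase, c1qb a complement chain and f9b a coagulation factor IX. Their differences ran from 0.51 ± 0.18 for lysmd1 to 1.06 ± 0.31 for f9b (SE), and a choice by likeness to egln3 fixes their direction. All 5 had no overlap between groups, like egln3 itself and 2.26% of all transcripts, and the same choice favours this separation. The egln3 difference of 2.19 was larger than each of these. For f9b the levels were -1.13, -0.21, -0.03 and -1.28 in sorafenib replicates 1 to 4, against -1.33, -1.78, -1.99 and -1.81 in control replicates 1 to 4. Sorafenib replicates 2 and 3 were the highest here too, which a choice by likeness to egln3 over the same arrays also favours.

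The genes most like pfkfb4a were hipk1b, acbd4, sox21a, smc3 and tor2a, with Pearson correlations from 0.915 to 0.970 over the 8 arrays. The deviations from group means correlated from 0.796 to 0.987. The gene hipk1b encodes a protein kinase, sox21a a transcription factor of the SOX family, smc3 a cohesin subunit and tor2a a torsin ATPase. Values of tor2a were -3.52, -3.53, -3.58 and -3.74 in sorafenib replicates 1 to 4, against -2.82, -2.04, -2.39 and -2.50 in control replicates 1 to 4. These levels were below those of pfkfb4a on every array. The tor2a difference was -1.16 ± 0.19 (SE, limma adjusted p = 0.252). It was -0.17 and -0.50 after local background subtraction with offsets of 50 and 10, and 0.28 after normexp. The genes tor2a and sox21a, the latter at -0.67 ± 0.19, had no overlap between groups, as did 1.92% of all transcripts in that direction. The other 3 differed by -0.31 to -0.13 and overlapped. Control replicate 1 was the lowest control array for pfkfb4a and for all 5 of these genes. A choice by likeness to pfkfb4a over the same arrays favours this shared pattern and the direction of the differences, so neither is separate evidence.

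Markers of other tissues differed between the same arrays that differed in egln3. Of the 31 neural markers measured, all 31 had negative differences, with a median of -0.73. The mean neural score, each gene taken relative to its mean over all arrays, was 0.19, -0.81, -1.09 and 0.41 in sorafenib replicates 1 to 4, against 0.32, -0.04, 0.46 and 0.56 in control replicates 1 to 4. It was lowest in the 2 samples with the most egln3. The summed level of these markers, in units of the array's 75th percentile, was 158 to 353 in sorafenib hearts and 319 to 421 in control hearts.

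Liver and plasma protein markers ran the other way. Of 18 measured, 17 had positive differences, with a median of 0.75. Their score was 0.33, 0.57, 1.19 and -0.54 in sorafenib replicates 1 to 4, against 0.38, -0.35, -0.83 and -0.74 in control replicates 1 to 4. Their summed level was 446 to 1202 in sorafenib hearts and 407 to 961 in control hearts, and c3a.6 was well above background on 0 of 8 arrays. Of 20 measured markers of pancreas and digestive tract, 19 had positive differences with a median of 1.47. Their summed levels were 104 to 470 in sorafenib hearts and 37.0 to 285 in control hearts. The yolk genes of the same list, vtg2 and vtg5, were well above background on 0 of 8 arrays, so no yolk gene was among those measured.

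With the neural and liver scores as covariates, the egln3 difference was 1.38 and that of pfkfb4a was -0.70. Both scores themselves differed on average between the groups. Leaving out sorafenib replicates 2 and 3 removes the arrays with the most egln3, so the resulting value cannot show the part of tissue. Beyond the covariate fit, the part of these tissues in either difference was not tested. In whole hearts, fewer cells of a type and less RNA per cell cannot be told apart.

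Markers of the heart's own cells were also described beside both genes. Of 18 heart muscle markers measured, 17 had positive differences with a median of 0.48. Their score was -0.08, 0.56, 0.73 and -0.34 in sorafenib replicates 1 to 4, against -0.23, 0.12, -0.16 and -0.59 in control replicates 1 to 4. It was highest in sorafenib replicates 2 and 3, the samples with the most egln3. The summed level of the heart muscle markers was 298 to 618 in sorafenib hearts and 276 to 425 in control hearts. Of 14 endothelial and endocardial markers measured, 13 had negative differences with a median of -0.42. Their score was -0.34 to -0.09 in sorafenib hearts and 0.07 to 0.30 in control hearts, without overlap, and their summed level was 65.0 to 78.0 in sorafenib hearts and 74.6 to 90.5 in control hearts. The vascular genes kdrl, cdh5 and flt1 were well above background on 0 of 8 arrays. Blood cell markers had a median of 0.29 over 17 genes and skeletal muscle markers a median of 0.00 over 19. The summed level of the blood cell markers was 422 to 617 in sorafenib hearts and 246 to 547 in control hearts. That of the skeletal muscle markers was 1400 to 1826 in sorafenib hearts and 1501 to 1844 in control hearts, above that of the heart muscle markers. The part of all these markers in the differences of egln3 and pfkfb4a was not tested.

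**Figure D3:**
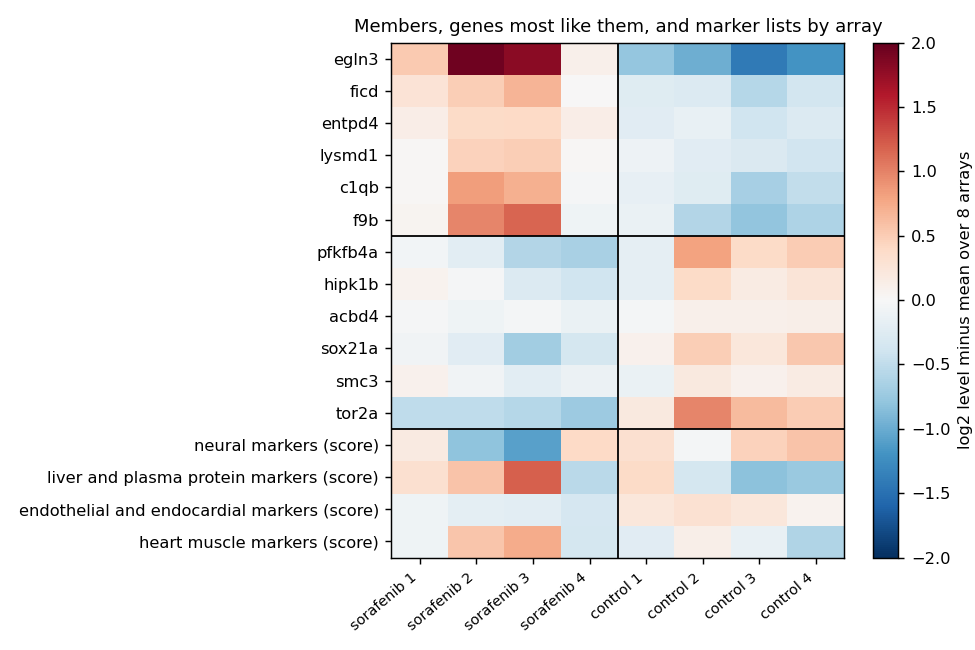
Levels of egln3, pfkfb4a and the 5 genes most like each, and scores of 4 marker lists, on each array. Colour shows the log2 level minus the mean over 8 arrays, red for higher and blue for lower, with sorafenib arrays left of the vertical line. Sorafenib replicates 2 and 3 are darkest for egln3, low for neural markers and high for liver and heart muscle markers. In contrast, pfkfb4a is near its mean in sorafenib replicate 1 and control replicate 1.

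Of 26 other settings, 6 (filters, probes as units, blocks and the variance model) left both values unchanged, since each gene has 1 probe and the groups are balanced. In the other 20 the sign of each difference was the same as reported. The egln3 difference lay between 1.38 and 2.73, and that of pfkfb4a between -1.06 and -0.04. The egln3 range has its low end with the tissue scores as covariates, and its high end with arrays weighted by quality. For pfkfb4a the low end in size came from normexp and the high end from slide 2 alone. Normexp, which fitted sorafenib replicate 4 poorly (background SD 1199), also moved the pathway genes. The medians were -0.19 for oxygen sensing, -0.24 for HIF targets and -0.38 for glycolysis, with all transcripts at 0.12. Among higher genes it gave 0.07 for p4ha1b, 0.09 for pklr, 0.08 for fbp1b and 0.13 for entpd4. Among lower genes it gave -1.56 for eno2, -1.37 for aldocb, -1.08 for pgam1b, -0.38 for ndufa4l2a, -0.24 for cxcr4b and -0.61 for smc3, while hipk1b and acbd4 turned to 0.12 and 0.13.

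**Figure D4:**
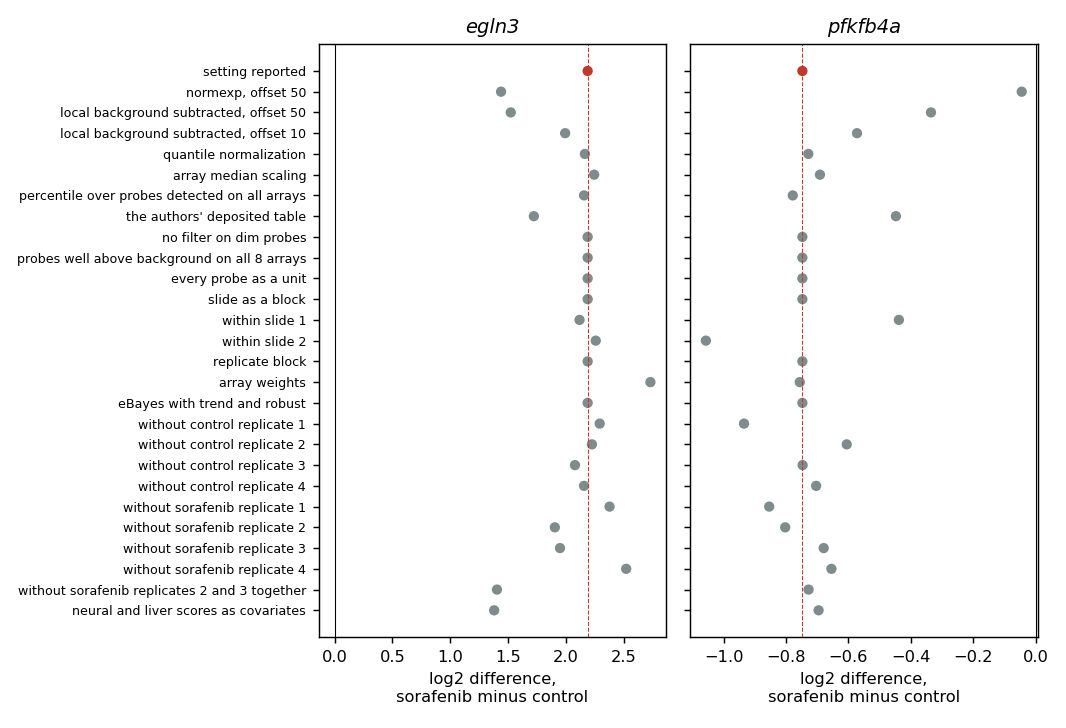
Log2 difference, sorafenib minus control, of egln3 (left) and pfkfb4a (right) in the reported setting (red point and dashed line) and in 26 other settings (grey), 6 of which leave the value unchanged. Every egln3 value is above 0 and every pfkfb4a value below 0. The smallest pfkfb4a value, -0.04, comes from normexp, which fitted sorafenib replicate 4 poorly.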

How the data were processed

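Total RNA of larval hearts was labelled with Cy3, per the labels' protocols, and hybridised to 8 arrays, 4 sorafenib and 4 control. The intensity values deposited by the authors are processed signals from Feature Extraction 10.1.1.1 per the file headers, background-subtracted within the array, whereas the submitters' processing notes name version 8.0. The headers give build danRer5. The log2 table deposited by the authors (21383 probes, correlation with its own array 0.975 to 0.985, lowest value 5.66, centring not given in the sources used here) served as an alternative. Its column medians were 7.20 to 7.22.

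Control spots and 5 to 15 outlier spots per array were removed. Saturated spots numbered 0. Repeated spots of a probe were averaged. Values are log2 processed signal minus the array's 75th percentile. Probes well above background on at least 4 of 8 arrays were kept, the brightest standing for a gene, which left 20736 transcripts, 8904 named. Names came from RefSeq accessions in a gene table of assembly GRCz12tu (15163 of 43603 probes). Since builds differ, no coordinates are given. Unnamed probes were grouped by transcript identifier after a first fit without this. limma 3.58.1 (R 4.3.3, lmFit and eBayes) compared sorafenib with control, adjusting by Benjamini-Hochberg over all transcripts. Other background corrections, scalings, filters, blocks and left-out arrays were tried as alternatives. The series text describes independent experiments, and the number of arrays limits the precision.

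Named genes were both members, the EGLN, HIF, ARNT, VHL and PFKFB genes measured, 4 higher and 4 lower genes of the HIF target and glycolysis lists by smallest p (1 of which is not reported here), the 5 most correlated with each member, and the 3 brightest heart muscle genes. Members, lists and the arrays left out together were chosen with earlier results of these data known. The comparison was tested on simulated data of 20736 genes, with independent normal noise of the same SD in both groups for each gene. Recovery by limma was 0% for 1.5-fold, 32% for 2-fold, 92% for 4-fold and 100% for 8-fold changes, and 2 of 114 calls were false. The simulation held no variation shared by many genes of an array and no unequal spread between groups. The real arrays showed both, so these rates may not hold for them. The files used here hold no mean signal, so the median signal replaced it in normexp.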

Additional observations from a re-analysis of the deposited data

Results flagged for a closer look

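In 78 groups of 4 arrays, covering 39 named genes, 4 held a sample far from the other 3 relative to the range of the group, and chance alone gives about 1 in 20. Neither egln3 nor pfkfb4a was among them. For epas1b, sorafenib replicate 4 was highest at 2.26, against 1.098 to 1.27 in the other sorafenib arrays, a gap of 0.857 of the range. For hif1al the same array was lowest at 2.44, against 3.61 to 3.79, a gap of 0.862 of the range. For pgam1b, control replicate 2 was lowest at 3.31, against 3.92 to 4.00 in the other control arrays, a gap of 0.879 of the range. For acbd4, one of the genes most like pfkfb4a, control replicate 1 was lowest at -1.05, against -0.90 to -0.89, a gap of 0.910 of the range.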

How the results depend on the processing

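The number of calls over all transcripts varied with the setting. Higher calls numbered 1 after local background subtraction with an offset of 50 or of 10, 2 after quantile normalization, 1 with array median scaling, 3 in the authors' deposited table and 25 with array weights, and lower calls numbered 5 in that table and 20 with array weights. Leaving out 1 array gave 0 to 1 higher and 0 lower calls, the 1 coming without control replicate 3. With array weights tor2a passed the threshold (adjusted p = 0.0438). The planned normexp correction fitted sorafenib replicate 4 poorly, with a background SD of 1199 against 13.9 on sorafenib replicate 1 and 0.39 to 0.63 on the other 6 arrays, and it shifted the median of all transcripts to 0.12. It gave 1.44 for egln3 and -0.045 for pfkfb4a, or 1.32 and -0.16 relative to that median. List medians there were -0.19 for oxygen sensing, -0.24 for HIF targets and -0.38 for glycolysis. It reversed egln1b (-0.24), hif1al (-0.42), hif1al2 (0.51), arnt2 (0.34), pfkfb3 (-0.12), p4ha2 (-0.13), hipk1b (0.12), acbd4 (0.13), tor2a (0.28), actc1a (-0.33) and tnnc1b (-0.52). The subtraction settings were added after seeing this, and gave -0.34 and -0.57 for pfkfb4a, and 0.076 and 0.14 for hif1al2 at offsets of 50 and 10. Without sorafenib replicates 2 and 3, egln3 was 1.40, and hif1al (-0.22), pfkfb3 (-0.047) and tnnc1b (-0.12) reversed. With neural and liver covariates egln3 was 1.38 and the oxygen sensing median 0.21, and hif1al (-0.32), hif1al2 (0.34), pfkfb3 (-0.16), actc1a (-0.020), cmlc1 (-0.052) and tnnc1b (-0.17) reversed. Slide 2 alone reversed epas1b (0.15) and hif1al (-0.12). Leaving out 1 array gave 1.90 to 2.52 for egln3, -0.93 to -0.61 for pfkfb4a, -0.034 to 0.42 for hif1al, -0.41 to 0.17 for hif1al2 and -0.084 to 0.23 for arnt. The cause of these shifts was not tested. Same-numbered arrays correlated at 0.27, 0.43, 0.04 and 0.70 in their deviations, so the numbers were not taken as pairs by the rule that all exceed 0.1. Sorafenib replicates 1, 2 and 4 correlated best with their own number, a hint of pairing from the data, and sorafenib replicate 3 with control replicate 1 (0.23). The replicate block gave 2.19 for egln3, -0.75 for pfkfb4a and 0 calls, with 2791 transcripts at an unadjusted p under 0.05 against 1562 without it. Both egln3 and pfkfb4a have 1 probe each, so no other probe could be tried for them.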
